A study of Mus musculus with 6 samples.

Results

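The mitochondrial ribosomal protein genes, Mrpl for the large subunit and Mrps for the small subunit, were taken from the array by name, as every probe whose gene name begins with MRPL or MRPS followed by a number. This gave 125 of 45281 probes, for 73 of 30774 gene names. A probe was tested when its detection score was above 0.99 on at least 3 arrays, which left 108 probes for 68 genes. These 108 probes were detected on all 6 arrays and the other 17 on none, so that no member passed this filter through 1 group. The 5 genes without a tested probe were Mrpl19, Mrpl21, Mrpl32, Mrpl45 and Mrps14. All 73 names are current RefSeq symbols, and the members Mrpl41, Mrpl42, Mrps36, Mrpl57 and Mrpl58 were not analysed here under these names.

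The study measured what the embryonic stem cell miRNA miR-294 does to messenger RNA levels in cells without miRNAs of their own. RNA came from feeder-free mouse ES cells of strain 129/SvEv, labelled Dicer1-null, grown in 15% FCS and LIF. Both groups shared the deletion of Dicer1 and the deletion of Ago2, with a myc-tagged Ago2 transgene under the CAG promoter in its place. The study picked single colonies after the deletion, and how many clones the arrays represent is not given in the sources used here. A mimic of miR-294 or the control mimic cel-239b, a C. elegans miRNA, was nucleofected at 300 pmol together with 1 µg of the plasmid pEGFP-1. After 24 hr, the cells positive for GFP were sorted. Each group had 3 arrays, which the study describes as separate transfections.

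The mitochondrial ribosome translates the few messenger RNAs encoded by mitochondrial DNA, all of which specify subunits of the oxidative phosphorylation complexes. Its proteins are encoded in the nucleus, made in the cytosol and imported, and they assemble around RNAs transcribed from mitochondrial DNA. Some descend from the bacterial ribosome and keep the bacterial number, and others were added in mitochondria and mostly carry a higher number. miR-294 belongs to the miR-290 cluster, the main miRNA cluster of mouse ES cells, most of whose members share 1 seed, the bases that pair with a target.

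The mature sequences of the transfected miRNA and of 3 relatives are shown as given by RefSeq (GRCm38.p6), because the seed defines which messenger RNAs a mimic can pair with. Capitals mark the seed, bases 2 to 8. miR-294-3p, encoded at chr7:3220691-3220712 on the plus strand, shares its seed with miR-291a-3p and miR-295-3p, while miR-293-3p of the same cluster has another.
mmu-miR-294-3p: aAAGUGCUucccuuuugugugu
mmu-miR-291a-3p: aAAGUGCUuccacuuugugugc
mmu-miR-295-3p: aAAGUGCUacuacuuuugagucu
mmu-miR-293-3p: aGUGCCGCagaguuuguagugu

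Over all 45281 probes, the median signal of an array lay between 62.2 and 72.4. On each array 13855 to 14920 probes were detected (30.6% to 32.9%), so that this median lies among undetected probes. Detected signals also differed between arrays before normalization. The median signal of the tested members was 1062, 1058 and 1300 on cel-239b replicates 1 to 3. It was 1178, 1182 and 1300 on miR-294 replicates 1 to 3. All 10 ES cell markers examined were detected, with a summed signal of 120218 to 141110 in the cel-239b arrays and 129758 to 141020 in the miR-294 arrays. Nanog (0.62 and 0.19 on the log2 scale), Esrrb (0.34) and Zfp42 (0.22) rose and Tdgf1 fell by 0.39. None of 6 endoderm markers had a tested probe. Single markers of other lineages rose with miR-294. These were Cdx2 and Eomes among 6 trophoblast markers (summed signal 870.5 to 1058 against 996.8 to 1096), T among 5 mesoderm markers (487 to 541.2 against 528.7 to 572.7) and Thy1 among 6 fibroblast markers (663.4 to 762.8 against 701.8 to 750). T and Thy1 were detected on the 3 miR-294 arrays and on 0 cel-239b arrays, so that they entered the test only through the group where they are high. Of the 4 neural markers, 1 had a tested probe and did not pass the test (558.8 to 707.2 against 524.1 to 587.2). Their part in the results below was not tested. In RNA from a mixed population, a change in the number of cells and a change in RNA per cell cannot be told apart.

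Mitochondrial ribosomal protein messenger RNAs were rarely called lower with miR-294, and those called higher rose by small amounts. Of the 108 probes, 25 were called higher (23.1%) and 4 lower (3.70%), against 16% higher, 16.3% lower and 32.3% in either direction among all 14621 tested probes. A probe was called when its adjusted p from limma's moderated test (Benjamini-Hochberg over all tested probes) was below 0.05. The remaining 79 probes were called in neither direction. Log fold changes, always those of miR-294 over cel-239b in log2 of the normalised signal, ranged from −0.54 to 0.49 among the members, with a median of 0.08 against 0.01 for all probes. They were above 0 for 73 members (67.6%, against 51.8% of all probes) and below 0 for 35 (32.4%, against 48.2%). On a linear scale, the probe at one end rose by 40.8% and the probe at the other end fell by 31.2%. These sizes hold for the log2 scale used here. Under a variance-stabilizing transformation, which by construction compresses dim signals, the same probes (Mrpl49 3780435 and Mrpl38 4830367) differed by 0.25 and −0.21.

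**Figure D1:**
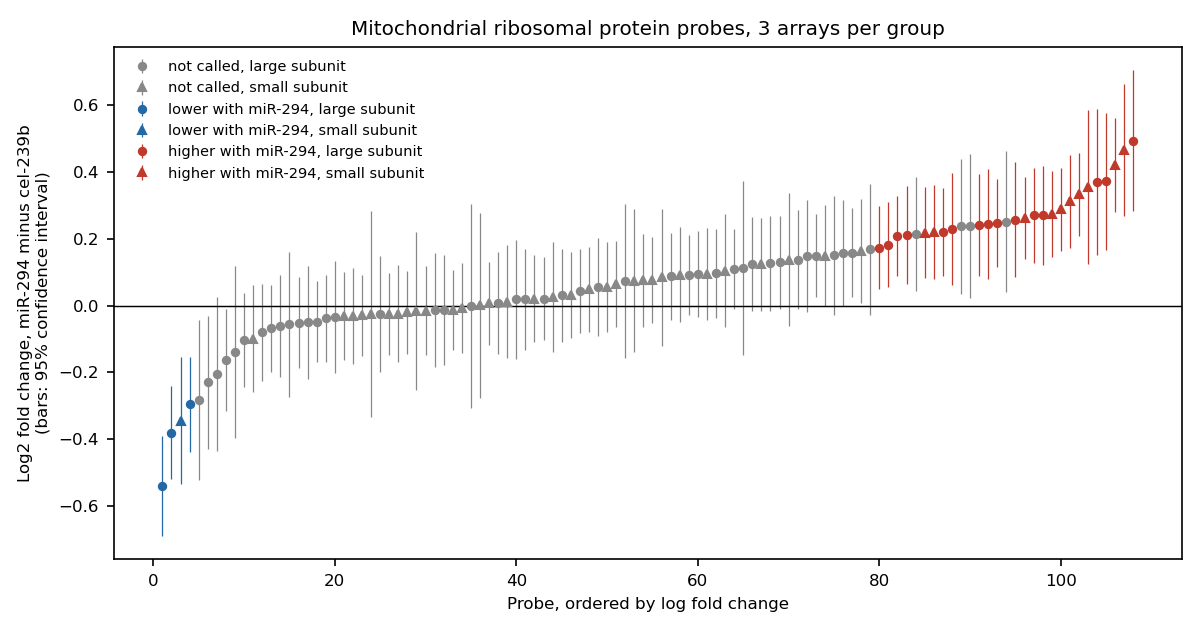
Log2 fold change (miR-294 minus cel-239b) of each of the 108 tested probes, ordered by size, with 95% confidence intervals from limma as bars, circles for the large and triangles for the small subunit. The 25 probes called higher (red) lie towards the right, with 4 uncalled probes among them, the 4 called lower (blue) form the left end, and most grey intervals include 0.

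The share of members called higher depended on the processing, and the share called lower did so less. When arrays were scaled to their medians instead of quantile normalised, 7 members (6.48%) were called higher, against 10.7% of all probes, and 3 lower (2.78%, against 13.5%). Higher calls thus made up 70.0% of the members' calls in place of 86.2%. Without cel-239b replicate 3 the count higher was 12 (11.1%, against 10.9% of all probes). It was 14 without cel-239b replicate 2 (13%, against 11%), 13 without miR-294 replicate 1 (12%, against 10.1%) and 13 without miR-294 replicate 2 (12%, against 11.3%). Under these settings the share of members called higher was near or under that of all probes. Between 3 and 5 members were called lower in every alternative run, a share of 2.78% to 4.63%. The share of all probes called lower was at least 11.1% in these fits, except at an adjusted p below 0.01, where it was 8.71% (members 2.78%), and without a detection filter, where it was 4.5% (members 3.20%) and the difference was small.

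Separation of the groups was also mostly towards higher signals. The signals did not overlap between the groups for 46 members higher with miR-294 (42.6%, against 24.3% of all probes) and for 8 lower (7.41%, against 23.6%). In either direction, 47.9% of all probes showed no overlap. No member had a B-statistic above 5 in this fit, a value which 0.677% of all probes passed as higher and 0.793% as lower. The study used this value as its cut-off on its own normalization and probe set, which were not reproduced here. At an unadjusted p below 0.05 in the same limma model, 32 of the 108 members were higher and 7 of the 108 lower. Of all 14621 probes, 3318 were higher (22.7%) and 3155 lower (21.6%). The B-statistic, the log odds of a change, was highest at 2.30 for the fallen Mrpl38 probe 4830367 and at 0.93 for the risen Mrps25 probe 3130021.

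As a whole, the members were bright and closely replicated. Their median log2 signal was 10.10, 10.03 and 10.06 on the cel-239b arrays and 10.26, 10.21 and 10.23 on the miR-294 arrays. Each miR-294 array thus lay above each cel-239b array. This order held without background correction, under cyclic loess and under a variance-stabilizing transformation. It did not hold under median scaling, where the values were 10.04, 9.99 and 10.15 against 10.24, 10.13 and 10.32. In the main processing, the members' mean log2 signal differed less between the groups than their median did. The means were 9.90, 9.90 and 9.90 on the cel-239b arrays and 9.99, 9.97 and 9.96 on the miR-294 arrays. The median of all tested probes was 8.11, and the median member stood at percentile 80.3 of brightness. Standard errors of the log fold change had a median of 0.06 among the members, against 0.08 for all probes. Each value is a mean over 21 to 71 beads, whose standard error was at most 7.52% of the signal. Of the brightest 36 members, 13.9% were called higher and 5.56% lower. For the middle 36 these shares were 27.8% and 0%, and for the dimmest 36 they were 27.8% and 5.56%, beside 16% and 16.3% of all probes at any brightness. The median log fold changes of the 3 sets were 0.03, 0.10 and 0.10 in this order. Across the 108 members, mean signal and log fold change had a Pearson correlation of −0.04 and a Spearman correlation of −0.19, as a description over probes on the same 6 arrays.

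**Figure D2:**
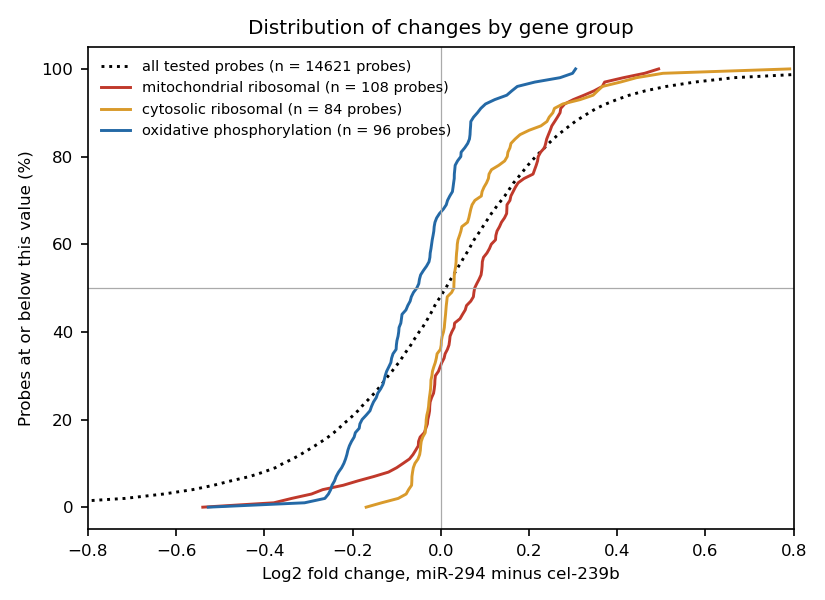
Cumulative share (%) of probes at or below each log2 fold change, for all 14621 tested probes, the 108 mitochondrial ribosomal, 84 cytosolic ribosomal and 96 oxidative phosphorylation probes; the ends of the curve of all probes run beyond the axis. The members' curve crosses 50% at 0.08, to the right of the cytosolic ribosomal proteins (0.03) and of oxidative phosphorylation (−0.05), and rises late because few members lie far below 0.

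Related gene groups give the setting of these values. The proteins of the cytosolic ribosome, which makes all nuclear-encoded proteins, had 11 of 84 probes called higher (13.1%, against 16% of all probes) and 0 lower (against 16.3%), with a median log fold change of 0.03. The nuclear subunits of oxidative phosphorylation, the partners of the proteins that the mitochondrial ribosome makes, had 4 of 96 probes called higher (4.17%) and 11 lower (11.5%), with a median of −0.05. Differences between the 3 groups were not tested.

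Among the large subunit genes, 15 of 65 probes were called higher (23.1%, against 16% of all probes) and 3 lower (4.62%, against 16.3%), with a median log fold change of 0.09. The largest rise was that of Mrpl49, a protein without a bacterial counterpart. Its probe 3780435 gave log2 signals of 7.72, 7.68 and 7.58 on the cel-239b arrays and 8.33, 8.13 and 8.01 on the miR-294 arrays. The miR-294 arrays were all above the cel-239b arrays. The difference was 0.49 ± 0.09 (SE), a 1.41-fold rise (adjusted p = 0.0064, limma, n = 3 per group), and 0.25 under the variance-stabilizing transformation. All 4 probes of Mrpl49 were called higher, the other three by 0.21, 0.24 and 0.27.

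Mrpl3 and Mrpl9 have bacterial counterparts that contact the large ribosomal RNA. Mrpl9 probe 450253 read 8.77, 8.68 and 8.72 against 9.26, 9.09 and 8.93 with miR-294. The groups did not overlap, and replicate 1 of miR-294 was the highest. The rise was 0.37 ± 0.09 (adjusted p = 0.0173, limma), whereas the second Mrpl9 probe was 0.25 higher and did not pass the test (adjusted p = 0.071). Mrpl3 probe 160370 read 9.53, 9.24 and 9.25 against 9.68, 9.80 and 9.65. Its cel-239b replicate 1 came closest to the miR-294 arrays, without overlap. Here the rise was 0.37 ± 0.09 (adjusted p = 0.0218, limma), and the other Mrpl3 probe rose by 0.23 (adjusted p = 0.045, limma). The calls of these Mrpl9 and Mrpl3 probes were lost when cel-239b replicate 2 was left out (adjusted p = 0.0562 for Mrpl9 and 0.0705 for Mrpl3 probe 160370) or cel-239b replicate 3 (0.0543 and 0.0748). Mrpl3 probe 160370 also lost its call without miR-294 replicate 2 (adjusted p = 0.068), and the other Mrpl3 probe did so without any array but miR-294 replicate 3 (adjusted p = 0.0515 to 0.133). That other probe was also not called under median scaling (adjusted p = 0.0863), cyclic loess (0.057), detection on at least 1 array (0.0519) or no detection filter (0.0911), the last of which also ended the call of probe 160370 (0.0571).

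Mrpl11, Mrpl12 and Mrpl44, large subunit members with known roles, gave differences of 0.25, 0.18 and 0.15. Mrpl11 and Mrpl12 belong to the stalk, where translation factors dock, and Mrpl12 also binds the mitochondrial RNA polymerase. Mrpl11 read 10.02, 10.01 and 9.93 against 10.26, 10.26 and 10.19, all higher with miR-294, a rise of 0.25 ± 0.06 (adjusted p = 0.0146, limma). Mrpl12 read 11.63, 11.58 and 11.66 against 11.83, 11.82 and 11.77, again with no overlap, a rise of 0.18 ± 0.05 (adjusted p = 0.0394, limma). The Mrpl12 call was lost under median scaling (adjusted p = 0.0807), and so was that of Mrpl11 (adjusted p = 0.0633). Leaving out any of the 6 arrays also ended the Mrpl12 call (adjusted p = 0.0645 to 0.119), as did testing without a detection filter (0.0526) and the replicate number as a block (0.0774), and leaving out cel-239b replicate 3 that of Mrpl11 (adjusted p = 0.0518). Mrpl44, which carries a ribonuclease III-like domain, read 9.06, 8.91 and 8.85 against 9.14, 9.05 and 9.07. Its groups overlapped, and the difference of 0.15 ± 0.07 did not pass the test (95% interval −0.02 to 0.32, adjusted p = 0.153, limma). Without cel-239b replicate 1 the Mrpl44 difference was 0.21 and passed it (adjusted p = 0.0494, limma). Mrpl17, one of the 2 brightest member genes, read 12.30, 12.28 and 12.23 against 12.19, 12.27 and 12.12, with overlap, a difference of −0.08 (−0.22 to 0.07). The other large subunit probes called higher were those of Mrpl18 (0.27), Mrpl15 (0.26), Mrpl35 (0.24), Mrpl40 (0.22), Mrpl55 (0.21) and Mrpl53 (0.17). The second, dimmer Mrpl18 probe was at −0.0023 and did not pass the test (adjusted p = 0.992).

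Mrpl38 and Mrpl52, both without a bacterial counterpart, were the large subunit genes that fell. Mrpl38 was low on every miR-294 array with both of its probes. Probe 4830367 read 7.55, 7.60 and 7.43 against 7.02, 6.94 and 7.01, a decrease of 0.54 ± 0.06 on the log2 scale (adjusted p = 0.00122, limma). Under the variance-stabilizing transformation its difference was −0.21, less than the −0.28 of the brighter probe. The brighter probe 6380102 read 11.84, 11.88 and 11.76 against 11.59, 11.50 and 11.51, a decrease of 0.30 ± 0.06 (adjusted p = 0.00982, limma). Its call was lost under median scaling (adjusted p = 0.0953). Mrpl52 read 11.98, 11.99 and 12.09 against 11.65, 11.59 and 11.68. The 3 miR-294 values lay below every control value, with a decrease of 0.38 ± 0.06 (adjusted p = 0.00351, limma).

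In the small subunit, 10 of 43 probes were called higher (23.3%, against 16% of all probes) and 1 lower (2.33%, against 16.3%), with a median log fold change of 0.07. The higher calls came mainly from Mrps31, Mrps25, Mrps23 and Mrps35, which have no bacterial counterpart. Mrps31 probe 1410278 read 9.63, 9.33 and 9.44 against 9.93, 9.98 and 9.89. All miR-294 arrays were above the controls, a rise of 0.47 ± 0.08, 1.38-fold (adjusted p = 0.00624, limma). The other Mrps31 probes rose by 0.29 and 0.22, so that all 3 of its tested probes were called.

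Mrps25 and Mrps23 showed rises of similar size. Mrps25 probe 3130021 read 7.45, 7.59 and 7.50 against 7.95, 7.89 and 7.96, a rise of 0.42 ± 0.06 (adjusted p = 0.00253, limma). Its probe 6270020 read 7.09, 7.22 and 7.44 against 7.62, 7.50 and 7.68, with the wider spread among control arrays. That rise was 0.35 ± 0.10 (adjusted p = 0.0309, limma). Under the variance-stabilizing transformation these rises were 0.20 and 0.15. The third Mrps25 probe, at −0.02, did not pass the test. For Mrps23, probe 4180056 read 9.73, 9.73 and 9.68 against 10.03, 10.03 and 10.09, a rise of 0.33 ± 0.05 (adjusted p = 0.00379, limma). Probe 2570451 read 9.04, 9.02 and 9.03 against 9.35, 9.26 and 9.42, a rise of 0.31 ± 0.06 (adjusted p = 0.00777, limma). Both Mrps23 probes separated the groups. Mrps25 probe 6270020 and Mrps23 probe 2570451 were not called under median scaling (adjusted p = 0.0718 and 0.0598), nor was the former without a detection filter (0.0808). Mrps25 probe 6270020 also lost its call when replicate 1 of either group, replicate 2 of cel-239b or replicate 3 of miR-294 was left out (adjusted p = 0.0628 to 0.0896). The remaining small subunit calls were Mrps35 (0.27) and 2 of 3 probes of Mrps18b (0.26 and 0.22), a relative of the bacterial protein S18.

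Mrps5, a small subunit protein with a bacterial counterpart, was the 1 small subunit gene with a lower call. Its dim probe 2030079 read 6.36, 6.30 and 6.48 against 6.0, 6.17 and 5.94, a decrease of 0.34 ± 0.08 (adjusted p = 0.0173, limma). The second Mrps5 probe was 0.07 higher and did not pass the test, so that the probes of this gene disagreed. Mrps5 lost its call without cel-239b replicate 3 (adjusted p = 0.0599), and also without miR-294 replicate 1 (adjusted p = 0.0534) or replicate 3 (adjusted p = 0.0542). Under the variance-stabilizing transformation its difference was −0.08 and not called (adjusted p = 0.0784), and without background correction it was −0.21 and called. Mrps12, part of the decoding centre, read 11.61, 11.63 and 11.55 against 11.66, 11.63 and 11.57 with probe 1450379. Its groups overlapped and the difference of 0.02 had a 95% interval of −0.11 to 0.15. With its other probe the difference was 0.08 (−0.06 to 0.21). Mrps24, the brightest member, read 12.90, 12.94 and 12.91 against 12.91, 12.92 and 12.88, a difference of −0.01 (−0.13 to 0.11).

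**Figure D3:**
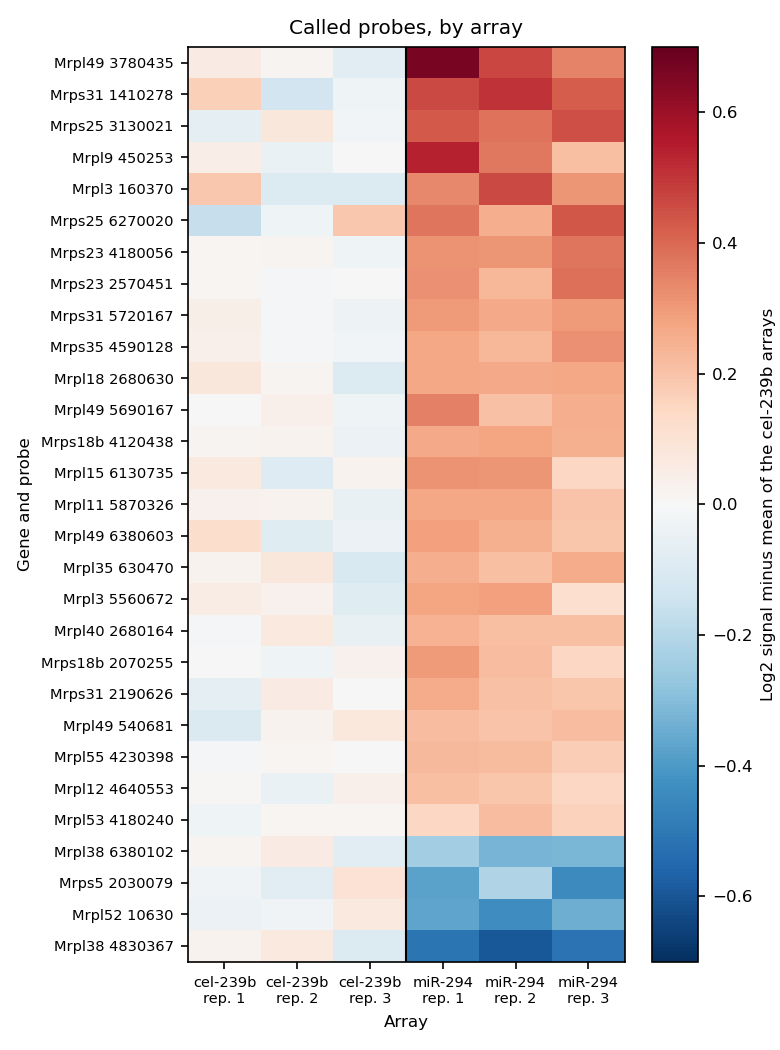
Log2 signal on each of the 6 arrays minus the mean of the 3 cel-239b arrays (colour scale) for the 29 called probes, named by gene and probe number. The 25 probes above are red on every miR-294 array and the 4 at the foot (both Mrpl38 probes, Mrps5, Mrpl52) are blue on every miR-294 array.

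Of the 20 named probes, which were the ones followed through the alternatives, 6 kept their call in all of them. The probes of Mrpl17, Mrpl44, Mrps12 and Mrps24 among the 20 had no call to keep. Most called probes were named for the size of their change in these same data, and the other called members were not followed. Mrpl49 probe 3780435, Mrps31 probe 1410278, Mrps25 probe 3130021 and Mrps23 probe 4180056 stayed called higher, and Mrpl38 probe 4830367 and Mrpl52 probe 10630 stayed called lower, in these fits.

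Members with a bacterial number and those with a higher number are set here beside the 16% of all probes called higher and the 16.3% called lower. In the large subunit, with numbers up to 36 counted as bacterial, 8 of 38 such probes were higher (21.1%) and 0 lower (median 0.11), and 7 of 27 with a higher number were higher (25.9%) and 3 lower (11.1%, median 0.09). In the small subunit, with numbers up to 21, 2 of 24 were higher (8.33%) and 1 lower (4.17%, median 0.05). Of the 19 small subunit probes with a higher number, 8 were higher (42.1%) and 0 lower (median 0.09), from 4 genes, of which Mrps31 alone gives 3. With each gene represented by its brightest probe, 3 of the 12 genes in this class were higher (25%, against 15.6% of all gene names). Their median was then −0.0031. For small subunit genes with numbers up to 21 it was 0 of 15 genes, with a median of 0.02. The number stands for ancestry only in part, since Mrps24 carries a high number and has a bacterial counterpart. Differences between these classes were not tested.

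Counted by gene, the share of increases was nearer that of all genes. With each gene represented by its brightest probe, 13 of 68 genes were higher (19.1%, against 15.6% of 10613 gene names) and 2 lower (2.94%, against 17.9%). The median log fold change was then 0.04. The large subunit had 10 of 41 genes higher (24.4%) and 2 lower, with a median of 0.09. The small subunit had 3 of 27 genes higher (11.1%, under the share of all gene names) and 0 lower, with a median of 0.01. Counting any probe, 16 genes had a probe called higher, 3 had a probe called lower, 0 had both and 49 had neither, where 18.1% of all 10613 gene names had a probe called higher and 19% one called lower. Of 27 genes with several tested probes, 19 had log fold changes of 1 sign and 8 of both signs. Mrpl15 illustrates this, with 1 of its 7 probes called. Mrpl38, Mrpl49, Mrps31, Mrpl3 and Mrps23 were called with all of their tested probes.

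**Figure D4:**
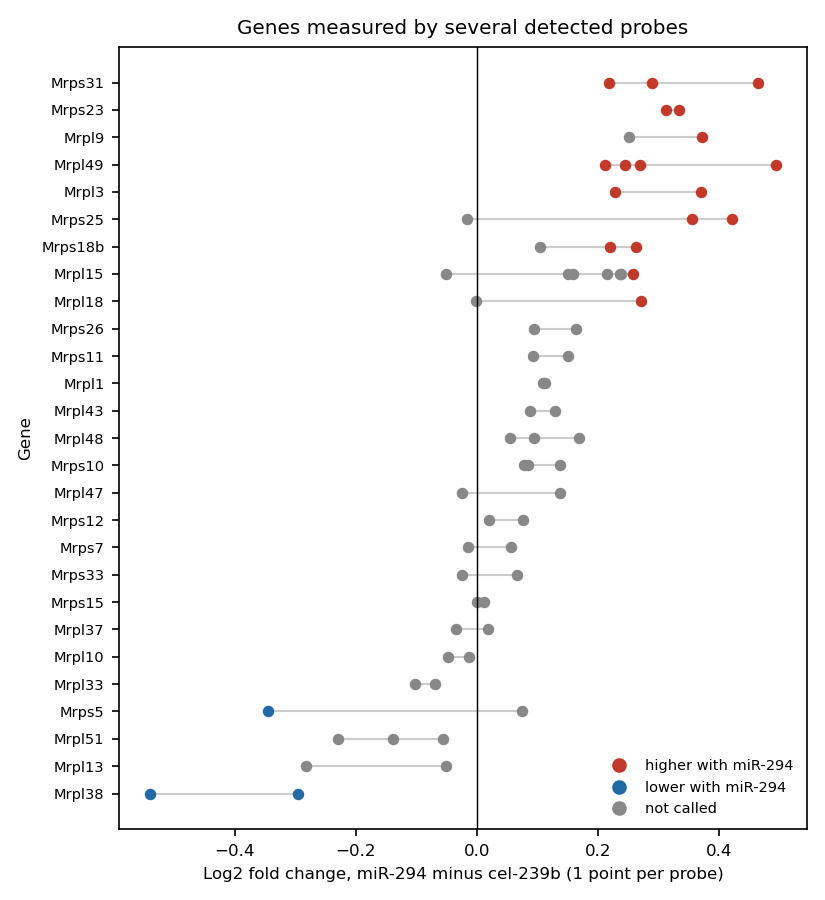
Log2 fold change (miR-294 minus cel-239b) of every tested probe of the 27 genes with several probes, 1 point per probe, joined by gene and coloured by call. Mrpl49, Mrps31, Mrps23 and Mrpl3 have only called probes to the right of 0, Mrpl38 only called probes to the left, and the 2 probes of Mrps5 lie on opposite sides of 0.

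For the 79 members without a call, the intervals limit what can be said. In 45 of them the 95% interval of the log fold change lay within 0.25 of 0, and in 34 it reached further, as far as −0.52 and 0.46. Their estimates ranged from −0.28 to 0.25. Signals did not overlap for 21 of them as higher and for 4 as lower, and overlapped for 54.

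The members work with other nuclear-encoded genes of mitochondrial gene expression, listed by function. Their genes are counted by any called probe, and on this count 18.1% of all gene names were higher and 19% lower. Factors of mitoribosome assembly and ribosomal RNA modification had 8 of 16 tested genes called higher and 0 lower, with a median log fold change of 0.21 over their 22 probes. They were C1qbp, Eral1, Gtpbp10, Mrm1, Nsun4, Rnmtl1, Rpusd4 and Tfb1m. Gtpbp10, a GTPase of large subunit assembly, had the largest rise, and its probe 6100240 read 7.34, 7.06 and 7.09 against 7.69, 7.95 and 7.66. The arrays of the 2 groups did not overlap and the rise was 0.60 ± 0.11 (adjusted p = 0.00573, limma). Its other two tested probes rose by 0.50 and 0.42. Mrm1, a ribosomal RNA methyltransferase, rose by 0.43 ± 0.06 (adjusted p = 0.00239, limma).

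Nuclear regulators of mitochondrial genes had 3 of 8 tested genes called higher and 0 lower. Gabpa, the DNA-binding subunit of the ETS factor GABP, known to act on many nuclear genes of mitochondrial proteins, read 7.52, 7.44 and 7.44 against 7.92, 7.88 and 7.88. It was higher on each miR-294 array, by 0.43 ± 0.05 (adjusted p = 0.00153, limma). Its other tested probe was 0.19 higher and did not pass the test. Ppargc1b, a coactivator, rose by 0.29 (adjusted p = 0.0259, limma), and Myc by 0.25 (adjusted p = 0.0472, limma, with a B-statistic of −3.83). For Myc this differs from the paper, which reports no increase of c-Myc messenger RNA on the same arrays. The call here was made at a looser threshold than the B-statistic cut-off of the study. The highest B-statistic in these lists was 1.85, for Gabpa, so that none of their genes passed the stricter cut-off of 5. Factors of mitochondrial DNA maintenance and transcription had 3 of 12 genes higher and 1 lower. Peo1, the mitochondrial helicase, rose by 0.49 ± 0.07 with its probe 6650008 (adjusted p = 0.00301, limma), Tfam, which packages mitochondrial DNA, by 0.41 and 0.39, and Lrpprc, which stabilises mitochondrial messenger RNAs, by 0.39 and 0.27. The third Peo1 probe (0.25) and the third and brightest Lrpprc probe (0.03) did not pass the test. Polg, the catalytic subunit of the DNA polymerase, fell by 0.35.

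Each of the remaining lists had at least 1 gene called lower. The list of translation factors also holds Oxa1l, a membrane insertase and not itself a translation factor. In this list 3 of 10 genes were higher, Oxa1l (0.35 ± 0.07, adjusted p = 0.00824, limma), Mtrf1 and Gfm1, and 1 lower, Mtif3. The list of mitochondrial aminoacyl-tRNA synthetases, which charge the transfer RNAs, also holds the amidotransferase subunits Gatb, Gatc and Qrsl1. In this list 3 of 16 genes were higher and 3 lower. Rars2 rose by 0.33 ± 0.06 (adjusted p = 0.00667, limma) with 2 of its 3 tested probes called, Cars2 and Gatc were also higher, and Pars2, Vars2 and Fars2 fell. Mitoribosomal proteins under other names had 0 of 7 genes higher and 1 lower, Chchd1, which fell by 0.17 ± 0.05 (adjusted p = 0.0422, limma).

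**Figure D5:**
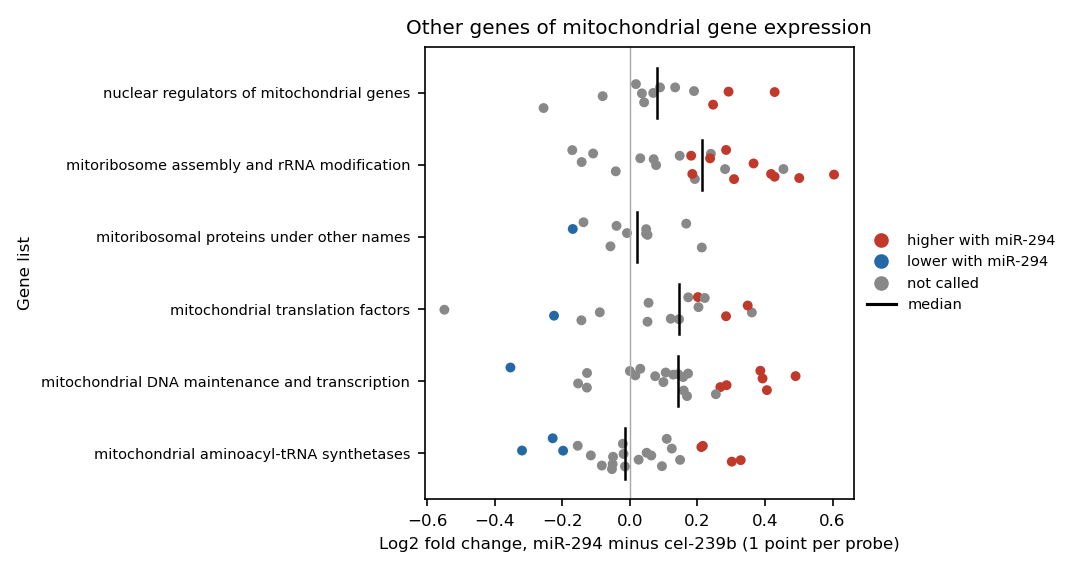
Log2 fold change (miR-294 minus cel-239b) of each tested probe in 6 lists of other genes of mitochondrial gene expression, coloured by call, with the list's median as a black bar. The assembly and rRNA modification list has its median at 0.21 and no blue point. The aminoacyl-tRNA synthetase list, which also holds amidotransferase subunits, has calls on both sides of a median of −0.01.

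Promoters of the members were examined for the binding motifs of factors known at nuclear genes of mitochondrial proteins. The windows ran from 250 bases before to 50 after the start of the gene (RefSeq, GRCm38.p6), and motifs were searched as exact letters on both strands, each counted by itself also where it overlaps another. A window was at hand for 60 of the 68 tested members. The ETS motif CCGGAAG was in 38.3% of these, against 21.8% of 5740 genes with a tested probe and a window and 9.93% of all 27025 genes with a window. For NRF1 (GCGCANGCG) the shares were 21.7%, 16.8% and 7.03%. For YY1 (AAGATGGCG) they were 11.7%, 4.13% and 1.64%, and for the E-box CACGTG 8.33%, 12.4% and 8.09%. These are descriptions of letters in a window, with no test of binding.

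The ETS motif was in 5 of the 14 members with a window that had a probe called higher (35.7%), in 1 of the 2 that had one called lower and in 17 of the 44 called in neither direction (38.6%). These shares were not compared by a test. The 100 bases before the start of 3 members are shown because they hold a match in genes named above, Mrpl3 (chr9:105053168-105053267) and Mrpl9 (chr3:94443236-94443335), which rose, and Mrpl52 (chr14:54426809-54426908), which fell. All are on the plus strand. Capitals mark the ETS motif in Mrpl3 and, on the opposite strand, in Mrpl52, and overlapping NRF1 matches of both strands in Mrpl9.
Mrpl3: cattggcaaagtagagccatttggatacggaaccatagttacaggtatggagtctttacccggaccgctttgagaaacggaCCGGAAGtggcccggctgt
Mrpl9: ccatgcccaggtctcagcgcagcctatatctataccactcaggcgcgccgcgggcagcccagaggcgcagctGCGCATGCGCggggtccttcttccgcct
Mrpl52: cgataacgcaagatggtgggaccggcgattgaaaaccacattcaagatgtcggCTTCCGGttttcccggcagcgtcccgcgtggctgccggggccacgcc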

How the data were processed

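Total RNA was measured on 6 Illumina MouseWG-6 v2.0 arrays. The authors deposited, for each probe and array, the signal intensity averaged over its beads as exported by GenomeStudio 1.0.6 (per the submitters' processing notes), without normalization or background subtraction. The deposited detection score is a fraction from 0 to 1 (a detection p-value subtracted from 1). The authors also deposited bead standard deviations and bead numbers. A further 24 columns were not used.

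In R 4.3.3 with limma 3.58.1, signals were background corrected from the detection p-values (normexp), offset by 16, quantile normalised and log2 transformed (neqc). Probes with a score above 0.99 on at least 3 arrays were fitted with lmFit and eBayes (prior share 0.01), with no block. P-values were adjusted over all 14621 probes by the Benjamini-Hochberg method. They measure the spread between separate transfections, and the number of arrays limits the precision. With 3 arrays per group, an exact two-sided permutation test of a single value cannot go below 0.10. Simulated data had 100 of 14621 probes changed by 0.5 and 100 by 1, with spreads reassigned at random among all tested probes. Of these, 64% and 93% were called, with 0 in the wrong direction. In the real data 32.3% of probes were called. Standard errors there had a median of 0.06 among the members, against 0.08 for all probes. The simulated rates therefore do not give the sensitivity for the members.

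The members, the gene lists and the rule for named probes were chosen with earlier results of these data known. The rule took the 8 called probes that rose most and up to 8 that fell most (4 existed), the 2 brightest genes, genes with known roles, and the largest called change in each list of other genes; remaining called members are given by their fold change. Alternatives to this processing were uncorrected background, cyclic loess, median scaling, a transformation that stabilizes variance, other detection filters, a stricter threshold, the replicate number as a block, array weights and each array left out.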

Additional observations from a re-analysis of the deposited data

How the results depend on the processing

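The median log fold change of the members was 0.06 to 0.09 under every alternative, and 0 members had a B-statistic above 5 in any alternative that gave this count. The number of members called higher, 25 as reported, was 7 under median scaling, 16 without a detection filter (12.8%, against 4.12% of all probes) and 8 at an adjusted p below 0.01 (7.41%, near the 7.1% of all probes), and 12 to 21 with an array left out. For the large subunit it was 3, 7 and 1 under those settings, 23 under the variance-stabilizing transformation and 4 to 14 with an array left out. For the small subunit it was 4 under median scaling. Lower calls in the large subunit were 5 under the variance-stabilizing transformation. The single lower call of the small subunit was 0 under that transformation and at an adjusted p below 0.01, and 0 to 1 with an array left out. The cause of these shifts was not tested, except that the stricter threshold lowers the count by construction. Of 320 values of the 20 named probes, 271 kept direction and side of the threshold, 45 fell short of it and 1 passed it. In 3 the sign changed with no call in either setting, for Mrps24 (0.03) and Mrpl17 (0.0002) under median scaling and Mrps12 probe 1450379 (−0.0011) without cel-239b replicate 3.

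The replicate numbers did not pair the arrays (correlations of deviations 0.14, −0.08 and 0.14 for equal numbers). With the number as a replicate block, 19 members were called higher (17.6%, against 14.4% of all probes) and 4 lower (3.70%, against 14.8%). No block was fitted for the BeadChip, which is not named in the data used. For 34 of the 79 members without a call, the 95% interval did not lie within 0.25 of 0.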
